A study of Mus musculus with 3 samples.

Results

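On mouse chromosome 3, tagged BCL11A gave 320 of the 2370 peaks in the deposited occupancy list (13.5%). All peaks of the chromosome were taken, whatever their score or width, and were divided by position: 226 peaks with a centre between 94496948 and 97760150 (build mm9) formed a dense block, and the other 94 are called the flanks. The block was chosen by the density of the peaks themselves, so its count and its density describe the choice and are no finding. Score and width were not used in the choice, but they come from the same list.

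The list came from MEL cells, a mouse erythroleukemia line that is arrested early in red cell development and is widely used to study globin regulation. The labels name 3 samples with 1 library each: MEL clones that express FLAG-Biotin-tagged BCL11A together with BirA, MEL cells that express BirA alone, and input DNA. BirA is a bacterial ligase that attaches biotin to the tag, so both the tagged and the BirA cells carry the enzyme, and chromatin was captured on streptavidin beads after fixation in 1% formaldehyde for 5 min. Only the peaks of the tagged BCL11A sample were analysed here, so nothing below compares the tagged cells with either control, and there is no replicate from which an error between samples could be taken. The labels do not say how the amount of tagged BCL11A compares with the cell's own protein, nor how many clones went into the library. A peak list holds no expression values, so the erythroid identity of the cells was not checked.

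BCL11A is a zinc-finger protein that binds DNA and recruits repressor complexes. In red cell precursors it is best known for silencing embryonic and fetal globin genes, and outside the red cell lineage it is needed for B cell development. A peak in this assay is an interval in which sequenced fragments from the streptavidin capture were in excess, as judged by the peak caller. The score that the authors deposited with each peak has no stated scale; it is used here only to rank peaks of this one list. No annotation or sequence of build mm9 was used here, so no peak is assigned to a gene, exon, intron or promoter. No base sequence is shown for the same reason.

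Chromosome 3 peaks lay in zones of very different density. From the first peak of the chromosome at 25747306 to the block, 35 peaks were spread over 68.7 Mb, or 0.509 per Mb. The block held 226 peaks in 3.26 Mb, or 69.3 per Mb. Beyond it, a distal stretch of 53 peaks ran for 7.15 Mb to position 104910130 at 7.41 per Mb, so that the block was 9.34 times as dense as the stretch that adjoins it. After that stretch, 3.87 Mb passed without a peak, and only 6 peaks followed over the remaining 48.7 Mb up to the last peak at 153653463 (0.123 per Mb). The end of the stretch was set where the next centre lay more than 1 Mb away, a rule chosen with the positions known. Within the stretch the longest distance between neighbouring centres was 681 kb.

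**Figure D1:**
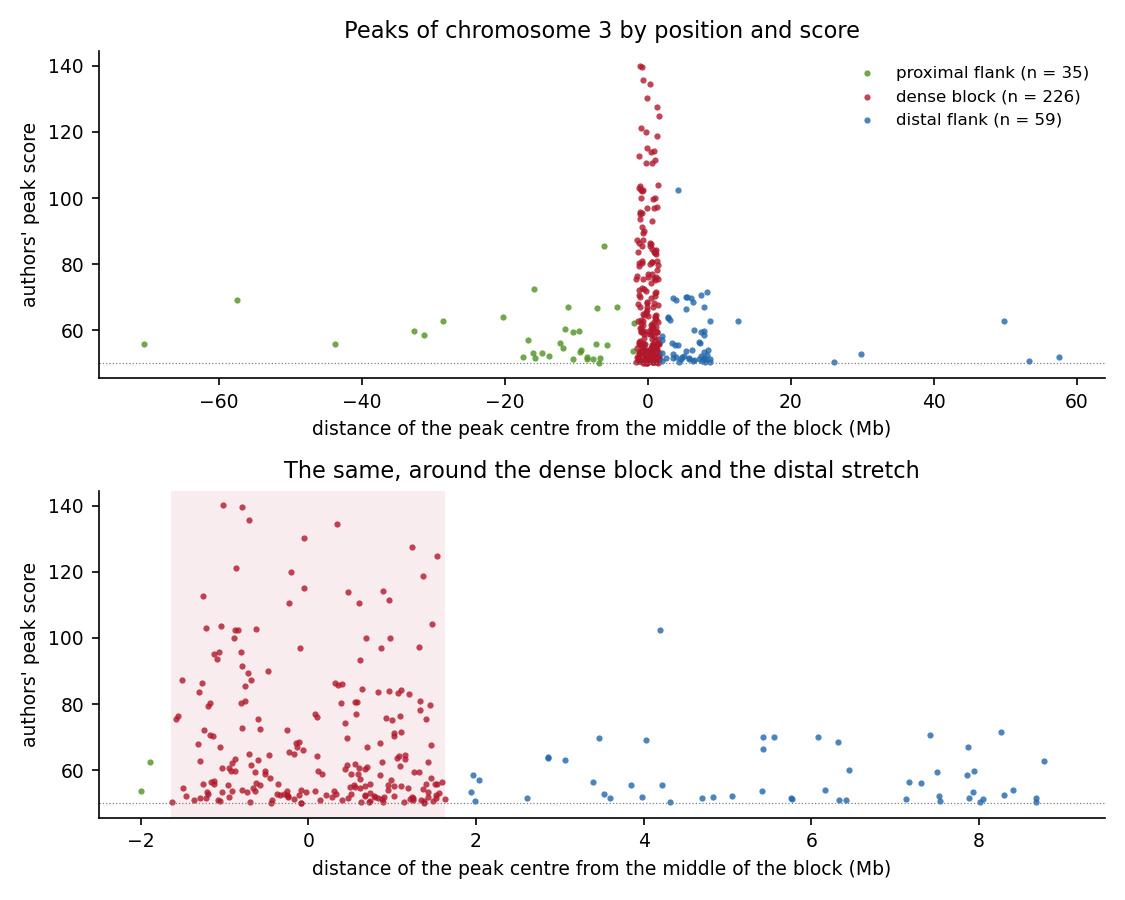
Each point is 1 of the 320 peaks of chromosome 3, placed by the distance of its centre from the middle of the block in Mb (x axis) and by the authors' score (y axis, dotted line at 50). The lower panel enlarges the block (shaded) and the distal stretch: the 226 block peaks reach a score of 140.07, while 1 of the 59 distal peaks, at 102.29, is over 100.

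Both edges of the block lay at breaks between peaks, which the choice of the block ensures, since its neighbouring centres are at most 250 kb apart. The last peak before it, at 94235655 to 94236289, had a score of 62.32 and a width of 635 bp, and its centre lay 261 kb from that of the first block peak. That first peak, at 94496948 to 94497638, scored 50.49 and was 691 bp wide. At the other edge, the last block peak at 97759411 to 97760150 scored 51.30 with 740 bp. The next peak, at 98070976 to 98071767, lay 312 kb on and scored 53.24 with 792 bp. None of these 4 peaks at the edges, inside or outside, scored over 62.32. In the 500 kb inside each edge there were 24 peaks (proximal) and 38 peaks (distal), against 2 and 4 in the 500 kb outside.

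Outside the block the density differed by side. On the distal side it was 5 peaks per Mb in the first Mb from the edge, 6.5 between 1 and 3 Mb and 8 between 3 and 7 Mb, so it did not decline with distance, and then it was 0.308 between 7 and 20 Mb. On the proximal side the same classes held 2, 0.5, 2.25 and 1.31 peaks per Mb. These rest on few peaks, with 1 peak in the proximal class of 1 to 3 Mb and 9 in that of 3 to 7 Mb. Beyond 20 Mb the 2 sides were alike at 0.123 (6 peaks, proximal) and 0.139 per Mb (5 peaks, distal). No control coverage was used here, so a regional gain in read coverage and a denser occupancy cannot be told apart in any of these counts.

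**Figure D2:**
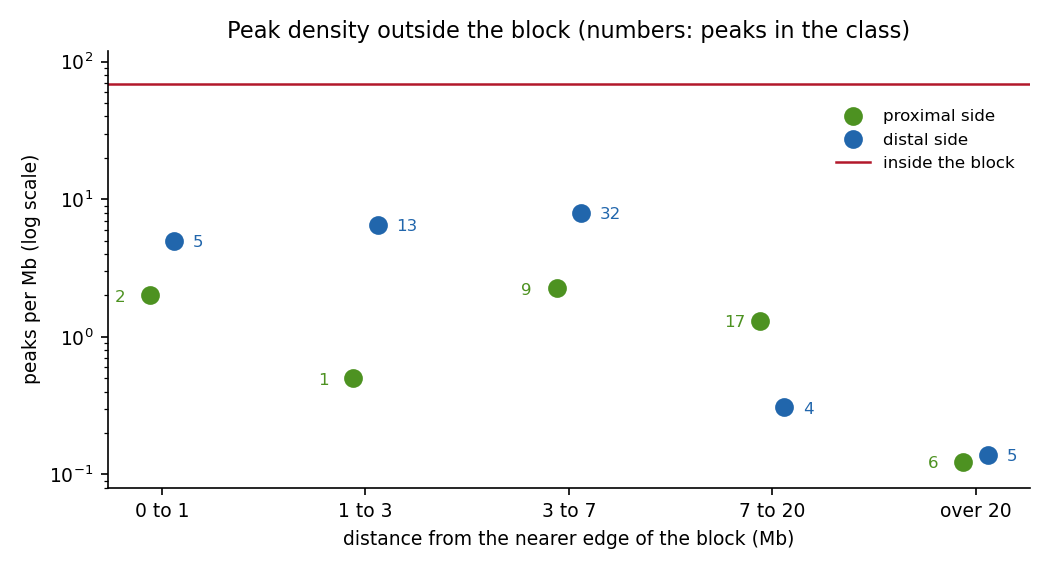
Peaks per Mb (y axis, log scale) in classes of distance from the nearer block edge in Mb (x axis), with the number of peaks beside each point and the block's own density as a line at 69.3. The distal side stays between 5 and 8 peaks per Mb up to 7 Mb and then drops to 0.308, while the proximal side lies between 0.5 and 2.25 up to 20 Mb without such a drop.

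Block peaks scored higher than flank peaks, and most of that gap was in the upper tail. The median score was 60.6 in the block (95% interval 57.5 to 64.3, n = 226) and 55.5 in the flanks (53.2 to 57.0, n = 94), a difference of 5.17. The upper quartiles were 80.2 and 62.8, while the lower quartiles were only 53.4 and 51.7. Intervals of medians here are exact binomial intervals from the ordered values; they treat peaks as independent, which neighbouring peaks of 1 library are not, so they describe the list and say nothing about other cells. With 1 library there is no test of the difference. Among the 144 peaks with a score of at least 60, the difference of the medians was 12.8. With the block widened to runs with centres at most 500 kb apart, it was 3.54, and the intervals of the medians overlapped.

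Scores from 80 to 100 were held by 35 block peaks (15.5%) but by 1 flank peak (1.06%), against 10.7% of the whole list. Scores over 100 were held by 23 block peaks (10.2%, Wilson interval 6.88 to 14.8) and by 1 flank peak (1.06%, 0.188 to 5.78). Of the peaks with a score of at least 60 these were 19.8% in the block and 3.57% in the flanks. In the whole list, 1226 of 2370 peaks scored under 60 and 238 scored over 100. For that subset too, the block was thus near the level of the list. Over the whole list at any score, the share over 100 was 10.0%, so the block was at the level of the list and the flanks below it. At the lower end, 110 of 226 block peaks (48.7%, Wilson interval 42.2 to 55.2) and 66 of 94 flank peaks (70.2%, 60.3 to 78.5) scored under 60. Over the whole list the share under 60 was 51.7%, so the block was near the level of the list and the flanks above it. Like the whole list, the block was a mixture in which about as many peaks lay near the lower limit of the list, 50, as above 60. The flanks were mostly near that limit.

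Within the flanks the median scores lay close together. The median score was 55.9 on the proximal side (53.6 to 59.8, n = 35) and 54.1 in the distal stretch (52.2 to 58.5, n = 53), although the stretch was denser. Against 241 peaks on the 13 chromosomes without any dense block, whose median was 54.8 (53.8 to 55.9), the flanks lay within 1 point. The raised density of the distal stretch thus came without the scores of the block: its upper quartile was 63.1, and only 1 of its peaks was over 80.

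**Figure D3:**
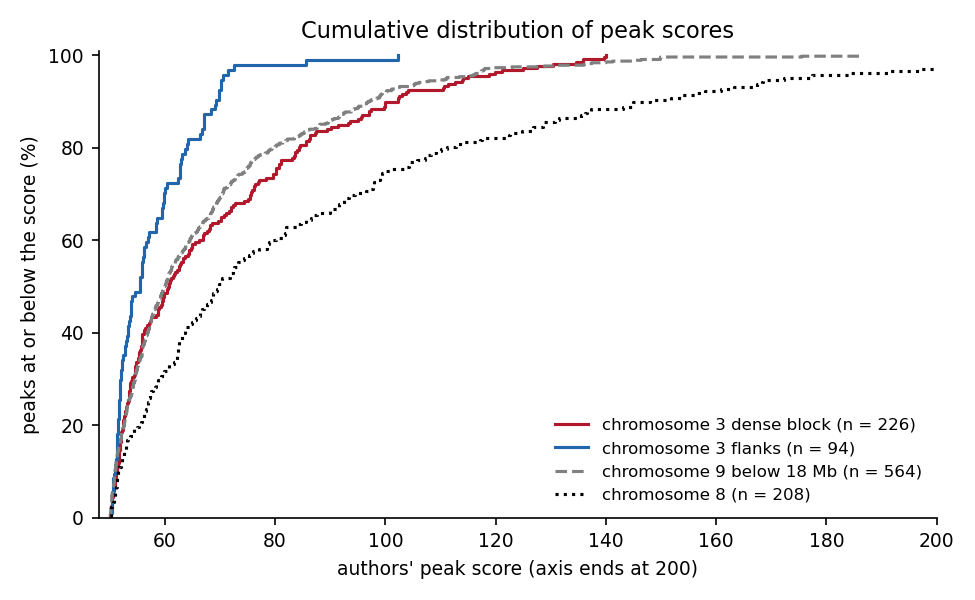
Cumulative share of peaks in percent (y axis) at or below each score (x axis, ending at 200) for the block and the flanks of chromosome 3 and for peaks of 2 other chromosomes. The block runs close to chromosome 9 below 18 Mb up to a score of 60 and lies to its right at the upper quartile (80.2 against 74.7). The highest score of the block is the lower one, 140.07 against 186.64. The flanks reach 98.9% below a score of 100, and chromosome 8 lies to the right with 25% of its peaks over 100.

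Beside peaks of 2 other chromosomes with dense blocks, chromosome 9 below 18 Mb and the whole of chromosome 8, the block scored as follows. Its median of 60.6 lay beside 59.97 for the 564 peaks of chromosome 9 below 18 Mb (95% interval 58.4 to 61.3), and the intervals overlapped. The 208 peaks of chromosome 8 had a median of 69.9 (65.6 to 75.5), whose interval did not overlap that of the block, and 52 of them (25%, Wilson interval 19.6 to 31.3) were over 100. The highest score on chromosome 3, 140.07, was below the highest of chromosome 9 below 18 Mb (186.64) and of chromosome 8 (362.90). In spacing, the median distance from a block peak to its nearest neighbour was 5.37 kb (4.33 to 5.95; 8.63 kb among peaks with a score of at least 60), against 5.10 kb (4.53 to 5.56) on chromosome 9 below 18 Mb.

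The 10 highest-scoring peaks of chromosome 3 all lay in the block. The first was at 95116486 to 95117851, with a score of 140.07 and a width of 1366 bp, and it stood apart, with its nearest neighbour 15.6 kb away. The second, at 95342775 to 95344170, scored 139.72 with 1396 bp and had a neighbour at 1.55 kb. The third, at 95421888 to 95424245, scored 135.81 and was 2358 bp wide. These 3 lay within 306 kb of each other in the proximal part of the block.

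The others were spread along it. Those at 96473976 to 96475537 (score 134.62) and 96080953 to 96082884 (130.33) lay close to the middle. Those at 97362014 to 97364585 (127.49), 97669223 to 97670513 (124.92) and 97493282 to 97494402 (118.76) lay near the distal end. The remaining 2, at 95261634 to 95263168 and 95924498 to 95926819, scored 121.09 and 119.90. Peaks over 100 thus occurred nearly throughout the block, in 11 of its 13 full bins of 250 kb, with a median of 94.9 kb between neighbouring ones (range 4.61 to 404 kb).

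Peaks over 100 were wide. Their median width was 1695 bp (range 960 to 2572 bp), against 810 bp for the other 203 block peaks. The nearest neighbour lay at a median of 5.27 kb for peaks over 100 and 5.39 kb for the others. The widest peak of the chromosome, 3056 bp at 94856832 to 94859887, was not among the highest, with a score of 86.38. The other 2 of the 3 widest were the peak at 97362014 to 97364585 (2572 bp) and that at 94873494 to 94875963 (2470 bp, score 112.60).

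In the flanks, the highest peak was at 100321769 to 100323006, in the distal stretch, with a score of 102.29 and a width of 1238 bp. It lay 2.56 Mb from the block edge and would rank 23rd among the block's peaks. The next on that side, at 104390523 to 104391428 and 103538156 to 103539191, scored 71.47 and 70.57. On the proximal side the highest was at 90042619 to 90043439 with 85.54. It was followed by 72.54 at 80298649 to 80299085 and 69.24 at 38664480 to 38664856. The last of these was only 377 bp wide, and the chromosome's only other peak under 400 bp, 267 bp at 63424557 to 63424823 with a score of 59.82, was on the proximal side too. No block peak was under 481 bp.

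Inside the block, peaks were uneven in number and in score. In full bins of 250 kb, counted from the start of the block, the number of peaks ran from 6 to 26 with a median of 18. The fewest were in the first bin and the next fewest, 10, in the eighth, from 96246948 to 96496947. The most were in the eleventh, from 96996948 to 97246947. The share of bases under peaks ran from 1.94% in the first bin to 10.6% in the fourth. Of the block as a whole, 6.88% lay under peaks, against 0.552% of the distal stretch. No bin of 100 kb, of which there were 33, was empty.

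The bin with the most peaks was not the one with the highest scores. The fourth bin, from 95246948 to 95496947, contained 22 peaks, whose median score was 80.6, and 5 of the 23 peaks over 100 lay in it. The eleventh bin had 26 peaks with a median of 67.3 and 2 peaks over 100. The sixth and the tenth bins had the lowest medians, 53.6 and 55.2, with 15 and 21 peaks. The tenth bin was also the only one beside the first with no peak over 100.

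**Figure D4:**
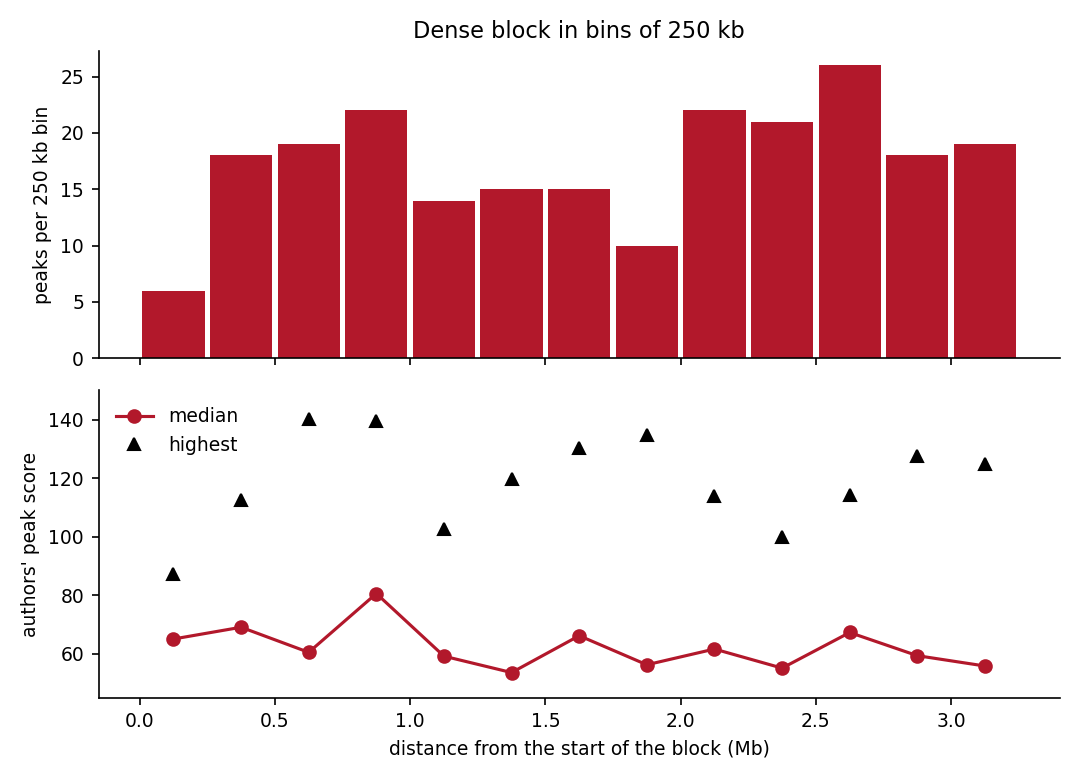
Number of peaks (upper panel) and median and highest score (lower panel) in the 13 full bins of 250 kb, against the distance from the start of the block in Mb. Counts run from 6 to 26; the median score is highest, at 80.6, in the fourth bin, and the first and the tenth bins have no peak over 100.

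The densest window of 100 kb, from 96674166 to 96774165, held 14 peaks with scores from 50.40 to 110.54 and a median of 61.2. The next 4 windows held 12 peaks each and began at 94910977, 96998757, 97147641 and 97459792, with median scores of 63.4, 69.2, 67.3 and 55.1. In each of these windows low and high peaks lay side by side, for example from 50.27 to 114.14 in the window at 96998757. Across the 225 pairs of neighbouring block peaks, the rank correlation of a peak's score with that of the next was 0.01. All these pairs come from 1 library, and the value is a description.

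The widest break inside the block was 103 kb between centres, from the peak ending at 96104706 (score 53.38) to the one starting at 96206644 (77.01). It leaves 105 peaks before and 121 after. The peaks before the break were wider, with a median of 961 bp (95% interval 827 to 1086) against 787 bp (726 to 846). Scores over 100 were held by 14 peaks before it (13.3%, Wilson interval 8.11 to 21.1) and 9 after it (7.44%, 3.96 to 13.5). These intervals overlapped, and both took in the 10.0% of the whole list. The median scores before and after it, 62.9 (57.5 to 68.6) and 59.4 (55.9 to 62.6), had overlapping intervals too. This division was made after the positions were seen. The next widest breaks were 89.4 kb, before the peak at 94763757, and 76.8 kb, before the peak at 96415150.

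Most block peaks had close neighbours. Another centre lay within 10 kb of 176 of the 226 (77.9%, Wilson interval 72.0 to 82.8), against 12 of 53 in the distal stretch (22.6%, 13.5 to 35.5) and 2 of 35 on the proximal side (5.71%, 1.58 to 18.6). These shares follow the densities that defined the zones. Over the whole list the share was 62.9%, and on chromosome 8 it was 67.3% (60.7 to 73.3). On chromosome 9 below 18 Mb it was 75.5% (71.8 to 78.9), near that of the block. Joined at distances of at most 10 kb, the block peaks formed 107 chains, of which 50 were single peaks, 27 pairs, 13 triplets and 17 longer. The 2 longest had 7 peaks each, from 95869734 to 95904367 (median score 53.6, highest 110.59) and from 96725702 to 96756496 (median 58.7, highest 110.54).

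The closest pair in the block was separated by only 5 bases, at 95869734 to 95870543 (score 72.01) and 95870549 to 95871247 (score 53.63). In the next closest, 98 bases lay between the peaks at 95956512 to 95957091 (51.25) and 95957190 to 95958072 (64.95). The third pair had 215 bases between the peaks at 97148647 to 97149284 (71.15) and 97149500 to 97150426 (70.27). When peaks with edges within 1 kb of each other were joined, 207 block peaks and 93 flank peaks were left, so that 69% of the chromosome's peaks still lay in the block.

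Block peaks were also wider. The median width was 834.5 bp in the block (95% interval 799 to 913) and 690.5 bp in the flanks (669 to 705), a difference of 144 bp, which was 394 bp among peaks with a score of at least 60. Over the whole list the median was 764 bp. On chromosome 9 below 18 Mb it was 782.5 bp (753 to 809), and this interval overlapped that of the block. On chromosome 8 it was 1011.5 bp (900 to 1092), and on the chromosomes without dense blocks 678 bp (662 to 685). All 22 peaks of at least 1500 bp lay in the block, where they made up 9.73%, against 7.85% of the whole list. The widest flank peak had 1338 bp. The block thus held 70.6% of the chromosome's peaks and 77.0% of its 292 kb under peaks.

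The rank correlation of score and width differed with the scores included. Over all peaks it was 0.67 over the 226 block peaks and 0.17 over the 94 flank peaks, where few scores were far from the lower limit of 50. Elsewhere it was 0.68 on chromosome 9 below 18 Mb, 0.74 on chromosome 8 and 0.04 on the chromosomes without dense blocks. Over the whole list it was 0.63, so the contrast of block and flanks was not particular to chromosome 3. Among peaks with a score of at least 60 the values were close, 0.60 in the block and 0.53 in the flanks. When the block was widened to all runs with centres at most 500 kb apart, the value outside the runs was -0.20. Over all scores it was -0.25 over the 35 proximal peaks and 0.41 over the 53 of the distal stretch. All these peaks share 1 library and 1 lower limit of the score, so the coefficients describe the list only.

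Close to the lower limit, many peaks had a score that went with their width. Many, but not all, peaks of 600 to 699 bp fell on narrow curves along which a narrower peak had a higher score. For each width, the most frequent score over the whole list, chromosome 3 included, was taken where at least 2 peaks had it. This score was held by 27 of the 40 flank peaks of that width range (67.5%) and by 22 of the 50 block peaks (44%). Over the whole list, 429 of 713 such peaks held it (60.2%). At some widths the most frequent score lay apart from that at neighbouring widths, such as 52.66 at 605 bp and 63.79 at 613 bp. These are therefore not counts of peaks on a single curve. In the flanks the peaks with this score ran without exception from 55.52 at 604 bp to 50.33 at 694 bp. In the block there were exceptions, and the rank correlation of width and score among them was -0.95. Others lay off this curve, such as peaks of 672 bp with 76.33 and of 619 bp with 51.81. A parallel curve lay higher, with 63.11 at 623 bp, 62.91 at 626 bp, 60.71 at 660 bp and 58.45 at 697 bp among the chromosome 3 peaks. The same pair of width and score therefore recurred: 45 of 94 flank peaks (47.9%, Wilson interval 38.1 to 57.9) and 40 of 226 block peaks (17.7%, 13.3 to 23.2) shared both values exactly with another peak somewhere in the list. The share over the whole list was 30.0%. Along such a curve, a difference in score restates a difference in width.

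**Figure D5:**
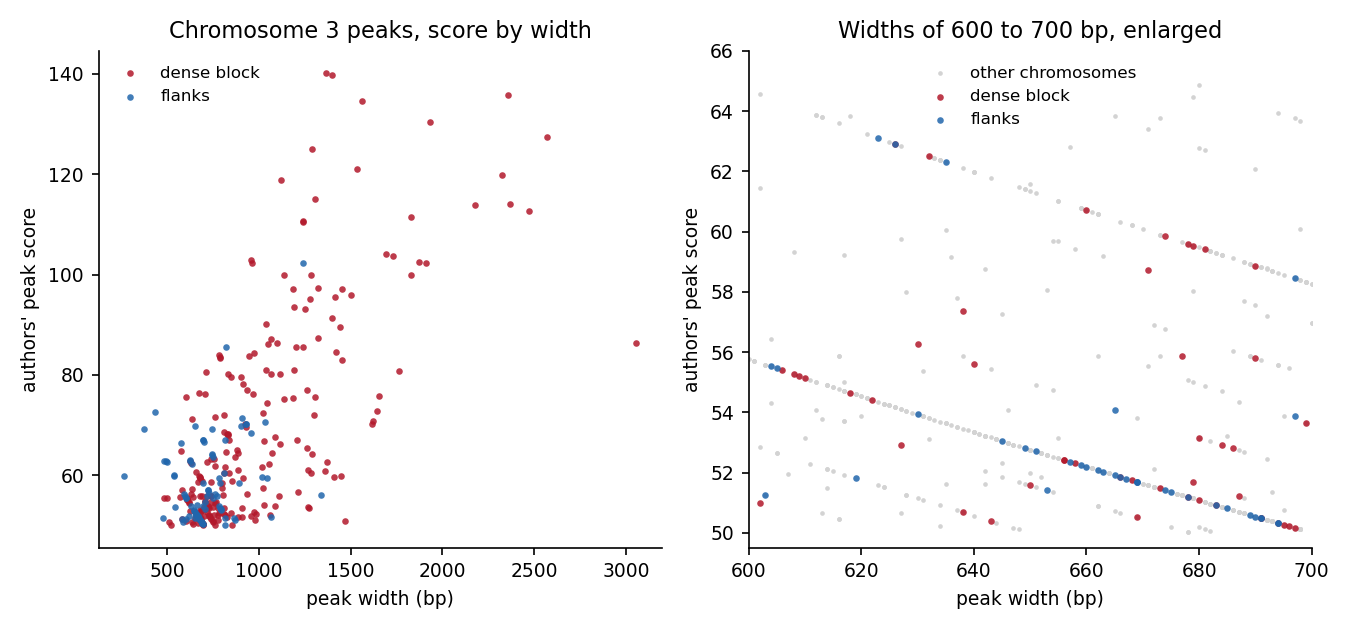
Score (y axis) against width in bp (x axis) for the block and flank peaks of chromosome 3, over all widths (left) and enlarged for 600 to 700 bp with the other chromosomes in grey (right). On the right, many peaks of chromosome 3 and of other chromosomes line up on the same falling curves and others lie off them, the lower one from 55.52 at 604 bp to 50.33 at 694 bp in the flanks.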

How the data were processed

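Streptavidin capture of FLAG-Biotin-tagged BCL11A in MEL cells was followed by single-molecule sequencing from poly(A)-tailed DNA, per the labels' protocols. The authors deposited peak intervals with 1 score each, per the file header called with CisGenome; the genome build is mm9 per the submitters' processing notes. The track name in the file header holds terms that are not explained and may bear on the settings of the caller. Apart from these, the labels and headers state neither the aligner, the caller's settings, its control nor the depth, so depth is unknown. The lowest score was 50.

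Peaks were placed by the centre of their interval, and coordinates count from 1. Medians have exact binomial 95% intervals and shares have Wilson intervals, which cover counting error only. No test was made, since there is 1 library. The members were chosen, and the zones, bins, windows and alternatives fixed, with earlier results of these data known. Peaks were named by rank (10 highest scores, 3 highest of each flank, 3 widest, edge peaks, 5 densest windows of 100 kb, 3 widest breaks, 3 closest pairs, and widths under 400 bp). The alternatives were a score of at least 60, joining peaks within 1 kb, interval starts as positions, and other distances for the block. Values were computed in Python (3.11.15) using scipy 1.17.1, pandas 2.3.3, numpy 2.4.6 and matplotlib 3.10.9, with functions tested on simulated data.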

Additional observations from a re-analysis of the deposited data

How the results depend on the processing

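Each alternative was held against a range: the 95% interval of a median or share, the extremes that the intervals of both medians allow for a difference, and Fisher's 95% interval for a rank correlation. With interval starts as positions, all 9 values compared stayed within these ranges, and 8 of 9 did with peaks within 1 kb joined. The block's median nearest distance then rose from 5.37 to 6.44 kb. Restricting the list to scores of at least 60 left 116 of 144 peaks in the block (80.6%). The differences of the medians grew to 12.8 in score and 394 bp in width, the share over 100 in the block to 19.8%, the nearest distance to 8.63 kb in the block and 405 kb in the flanks, and the rank correlation of score and width in the flanks to 0.53, beside 0.60 in the block. This restriction only removed the peaks under 60, which were commoner in the flanks, so these shifts follow from that removal. The same 23 block peaks were over 100 before and after it. Runs of at least 20 peaks with centres at most 100 kb apart gave the same 226 peaks in 2 runs. At 500 kb, 281 peaks (87.8%) fell in 3 runs, since the block gained 6 peaks and 29 and 20 peaks of the distal stretch formed runs of their own. The nearest distance was then 6.23 kb inside and 435 kb outside, and 0% of the peaks outside were over 100. The difference of the median scores fell to 3.54, with a range of -3.54 to 8.98 that takes in both signs. The rank correlation outside turned to -0.20, and the cause was not tested. Bins of 100 kb gave a highest density of 110 per Mb, against 104 in bins of 250 kb. No paired analysis was possible because a single list, from 1 library, was used. Depth limits cannot be stated without reads.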

Other observations

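A pair of peaks in the distal stretch of chromosome 3 had the same width and the same score although they lay 128 kb apart: 101551331 to 101552259 and 101678855 to 101679783 both had 929 bp and 70.16. Pairs that share both values were common near the lower limit of the score but scarce above it: over a score of 70, they took in 26 of 712 peaks of the whole list, and 2 of 88 on chromosome 3, which are the pair named here. It was singled out after its values were seen.

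One score, 55.87, was the most frequent of the list, with 30 peaks on 8 chromosomes. Unlike the falling curves, it recurred at 27 different widths, from 566 to 1175 bp. On chromosome 3 it was held by 6 peaks of 677 to 770 bp, 4 of them in the block.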
